A study of Arabidopsis thaliana with 48 samples.

Results

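In Arabidopsis roots moved to medium with the auxin indole-3-acetic acid (IAA), 172 of 22746 probe sets stood at least 1 log2 unit lower than on control medium after 4 h and were back within 0.5 below it, or above it, at 24 h. A probe set is the group of short probes that reads 1 transcript, or several alike, on an Affymetrix array. The members were chosen by 3 measured values. Their mean over all 48 arrays was at least 6.5, the mean of the 3 IAA arrays at 4 h lay at least 1 below that of the 3 control arrays with no overlap, and the same difference at 24 h was above -0.5. The 4 h and 24 h values below are therefore descriptions, and tests are given only for the other times.

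Roots came from 6-day-old seedlings of Arabidopsis thaliana grown on a nylon mesh, which was lifted onto control medium or onto medium with 1 µM IAA, and no strain, genotype or transgene is given in the labels for any group. Samples were taken at 0 h (under 5 minutes on the medium), 0.5, 1, 2, 4, 8, 12 and 24 h, and every one of the 16 medium-by-time groups held 3 arrays. Nothing in the labels says that the 3 replicates came from separate cultures, so p-values measure the spread between these samples. The RNA came from whole roots, so fewer cells of a type and less RNA per cell cannot be told apart in any difference below.

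IAA is the main natural auxin of plants. It binds a receptor complex that marks Aux/IAA repressor proteins for destruction, which frees auxin response factors to act on their target genes. In seedling roots auxin slows elongation of the primary root and starts lateral roots.

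Of the 172 members, 79 lay on probe sets with exactly 1 gene in the platform's gene table, 3 on probe sets with several genes, and 90 had no entry in that table. The tables gave a gene symbol to 11 of the 79 and a family name to 1 more, AT2G26690. For the others the locus alone is given, with no role. The 12 annotated members cover a cell wall enzyme (XTH32), hydrolases of sugar conjugates (BGLU16 and BGLU44), transporters (SWEET11 and AT2G26690), a secreted peptide (RALFL27), enzymes of redox, sulfur and detoxification chemistry (MSRB5, STR18 and GSTU27), a methyltransferase (NAMT1), a lectin (JAL33) and an autophagy protein (ATG8E).

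All values are log2 signals as deposited. Array medians ran from 7.46 to 7.64 and lower quartiles from 6.11 to 6.29, so a group mean near or below that quartile cannot be said to exceed background. The IAA array of replicate 3 at 2 h was 1 of 4 arrays that stood farthest from their group means, with the IAA arrays of replicate 3 at 1 h and replicate 2 at 24 h and the control array of replicate 3 at 0 h. Their root mean square distances were 0.286 to 0.304, against 0.115 for the closest array. Of the tissue markers, 1 of 23 for root and 2 of 15 for shoot could be named on the array. EXPA7, a root hair expansin, averaged 9.16, and the photosynthesis genes LHCB4.1 and RCA averaged 7.79 and 7.86, so the tissue label could be checked on these alone.

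As a group the members went down in steps and came back in steps. Their median difference between IAA and control medium was 0.08 at 0 h, -0.29 at 0.5 h, -0.40 at 1 h, -0.80 at 2 h, -1.21 at 4 h, -0.88 at 8 h, -0.52 at 12 h and -0.14 at 24 h. Over all 22746 probe sets the medians stayed between -0.018 and 0.008. The lowest of the 8 differences was at 4 h for 119 members, at 2 h for 28, at 8 h for 21, at 12 h for 3 and at 1 h for 1. The choice of members required the 4 h fall and the 24 h return, so the time of the lowest value is a description.

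**Figure D1:**
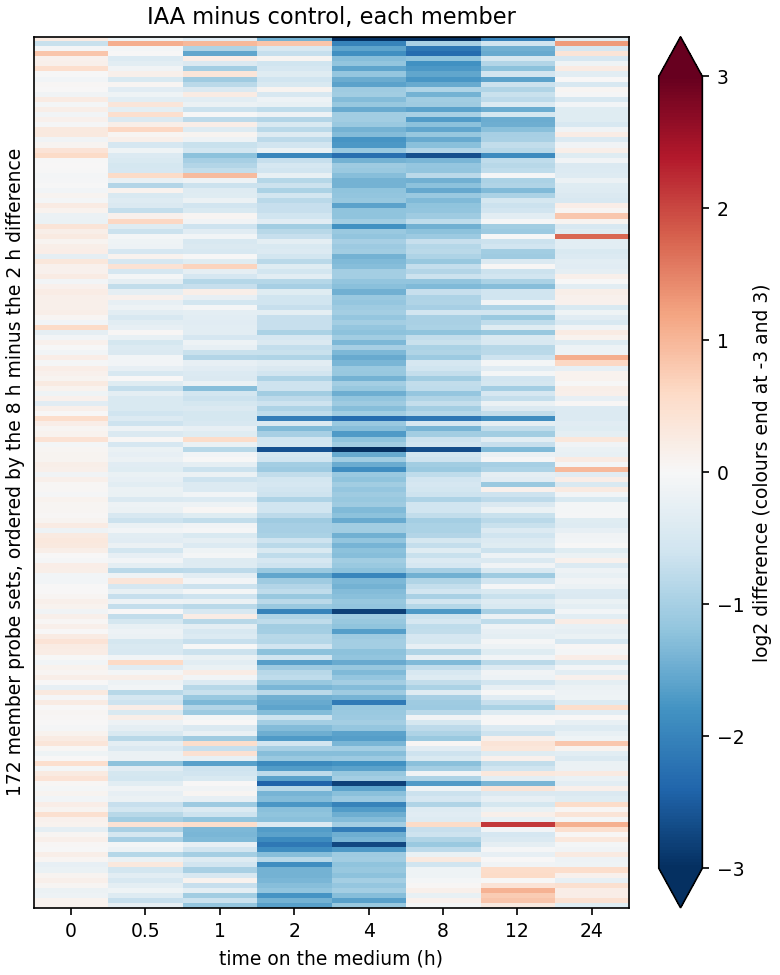
Log2 difference between the mean of 3 IAA arrays and the mean of 3 control arrays for each of the 172 members (rows) at 8 times (columns, h on the medium), with the colour scale in log2 units. The 4 h column is negative and the 24 h column above -0.5 by the choice of members, while the 2, 8 and 12 h columns were not used in it.

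At 0 h no member passed limma's test at an adjusted p under 0.05, against 0% of all probe sets, and 1 member and 181 of all probe sets had an unadjusted p under 0.05. At 0.5 h, 5 of 172 members were lower and none higher, with 0.251% of all probe sets lower and 0.928% higher. At 1 h, 16 were lower and none higher, against 0.607% and 1.34% of all. At 2 h, 93 were lower (54.1%) and none higher, against 3.76% and 5.44% of all probe sets. At 8 h, 98 were lower (57.0%) and none higher, against 6.43% and 8.45% of all. At 12 h, 48 were lower (27.9%) and 5 higher, against 4.93% lower and 5.99% higher among all. These counts moved with single arrays. The 2 h count was 49 without the IAA array of replicate 1, 58 without that of replicate 2, and 125 without that of replicate 3. In a fit of the 2 h arrays alone, and without replicate 1 at every time, 19 members passed at 2 h. The 8 h count was 56 without replicate 1 or 2. The 12 h count was 28 without the IAA array of replicate 1 or 2 and 29 without the control array of replicate 1. At 1 h it was 7 without the IAA array of replicate 1 and 9 without the control array of replicate 3. The 0.5 h count was 2 without the control array of replicate 1, and 1 without the control array of replicate 2 or the IAA array of replicate 1 or 2.

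**Figure D2:**
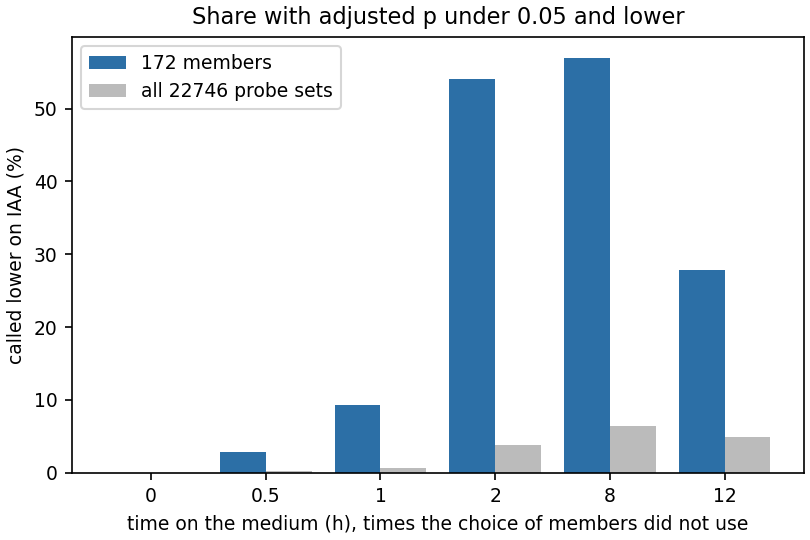
Percentage of the 172 members (blue bars) and of all 22746 probe sets (grey bars) that passed limma's test in the lower direction, by time on the medium in hours. Members reached 54.1% at 2 h and 57.0% at 8 h against 3.76% and 6.43% of all probe sets. All members had a mean of at least 6.5, which 15732 of the 22746 probe sets had.

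Overlap on single arrays was counted as well. At 2 h the 3 IAA values lay below all 3 control values for 85 members, against 9.48% of all probe sets. At 8 h this held for 137 members, against 16.8%, and at 12 h for 94, against 15.3%. The median of the members on each IAA array, relative to the control mean of its time, was -1.09, -1.09 and -0.37 at 2 h. At 4 h it was -1.14, -1.24 and -1.33, and at 8 h -0.88, -0.92 and -0.74. The replicate 3 array thus stood apart at 2 h, and the 3 arrays lay close together at 8 h. They did so at 4 h too, where the choice of members had required no overlap with the control arrays. At 24 h the medians were -0.07, -0.34 and 0.05, with replicate 2 the lowest.

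**Figure D3:**
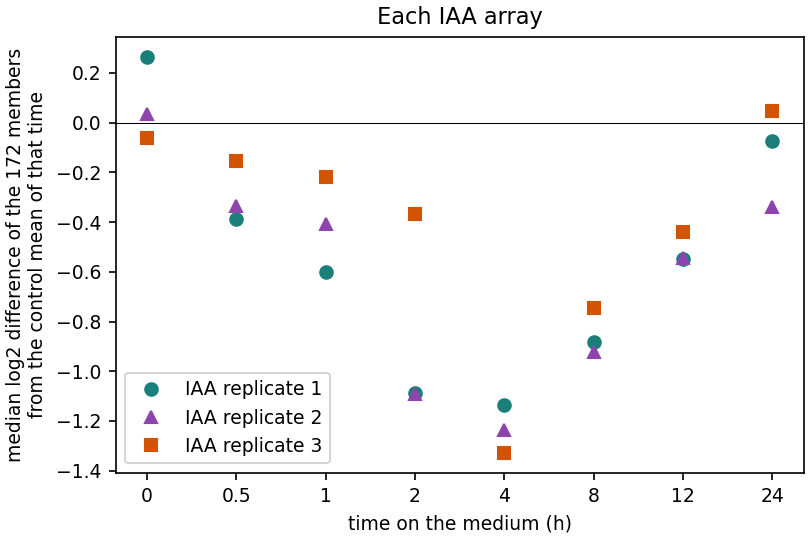
Median log2 difference of the 172 members on each IAA array from the mean of the 3 control arrays of that time, against time on the medium in hours, with 1 symbol for each replicate. Replicate 3 sits at -0.37 at 2 h, where the other IAA arrays sit at -1.09.

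The course lay on IAA medium. Relative to 0 h on control medium, no member passed at 2, 8 or 12 h, and neither did any of the 22746 probe sets (0%, with 1, 2 and 1 members and 435, 538 and 469 of all probe sets at an unadjusted p under 0.05). On IAA, 111 members were lower and none higher at 2 h than at 0 h, against 4.37% and 5.35% of all probe sets. At 8 h 97 were lower and none higher, against 6.79% and 8.76%, and at 12 h 54 were lower and 6 higher, against 5.42% and 6.34%. The median change of the members from 0 h on IAA was -0.91 at 2 h, -1.22 at 4 h and -0.11 at 24 h, while on control medium the same medians stayed between -0.09 and 0.13. The 4 h and 24 h arrays of both media entered the choice of members, so their medians are descriptions. At 8 and 12 h, which it did not use, the medians were -0.82 and -0.54 on IAA against 0.08 and 0.05 on control medium. The count at 2 h was 67 without the IAA array of replicate 1 at 2 h, 71 without that of replicate 2, and 68 without the IAA array of replicate 1 at 0 h. The count at 12 h was 31 without the IAA array of replicate 1 at 0 h and 35 without that of replicate 2 at 12 h.

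**Figure D4:**
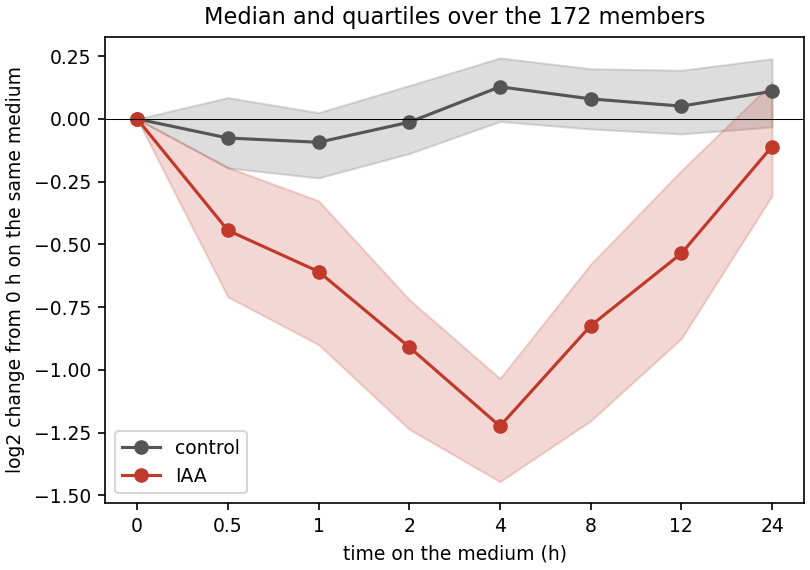
Median log2 change of the 172 members from 0 h on the same medium, with the band between the lower and upper quartile, against time in hours on control medium (grey) and on IAA (red). The IAA median reaches -1.22 at 4 h and the control median stays between -0.09 and 0.13. The 4 h and 24 h arrays entered the choice of members.

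The members differed in when they first passed and how long they stayed low. Both 2 h and 8 h were passed by 63 members, 2 h but not 8 h by 30, 8 h but not 2 h by 35, and neither by 44. At 2, 8 and 12 h together 28 members passed, and 39 passed at none of the tested times. The 5 members that passed at 0.5 h also passed at 1 and 2 h, 15 of the 16 at 1 h also passed at 2 h, and 44 of the 48 at 12 h also passed at 8 h. Passing at one time and not at another is not a tested difference between the times.

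The difference between times was tested by itself as a change of the IAA effect. Between 2 and 8 h it passed for 7 members. In 5 the difference rose and in 2 it went lower, against 1.25% and 0.497% of all probe sets. Without the IAA array of replicate 3 at 2 h, 15 members passed. From 8 to 12 h it passed for XTH32 alone, which rose, against 0.0572% of all rising and 0.00879% falling.

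XTH32 encodes a xyloglucan endotransglucosylase/hydrolase, an enzyme family that cuts and rejoins the xyloglucan chains between cellulose fibrils of the wall. At 0.5 h it stood at 8.56, 8.75 and 8.83 on control medium and at 7.71, 7.97 and 7.95 on IAA. Control values at 2 h were 8.80, 9.03 and 8.64 and IAA values 6.90, 6.80 and 7.66. The groups did not overlap at either time. XTH32 was lower at 0.5 h by -0.84 ± 0.187 (log2 difference ± SE, n = 3 in each group, adjusted p = 0.0104), at 1 h by -1.06 (adjusted p = 0.000344) and at 2 h by -1.70, a 3.25-fold difference (adjusted p = 3.09e-08). At 8 h the IAA values of 7.77, 7.52 and 7.59 still lay below the control values of 8.80, 8.88 and 8.55 (-1.12, adjusted p = 2.92e-05). At 12 h they were 8.56, 8.76 and 8.56 against 8.82, 8.37 and 8.27, and the groups overlapped (0.14, adjusted p = 0.713). The 0.5 h call ended without the IAA array of replicate 1 or the control array of replicate 2 or 3.

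The change of XTH32 from 2 to 8 h did not pass (0.58, adjusted p = 0.441). Its change from 8 to 12 h was 1.26 on the log2 scale. That call ended in 10 of the 12 fits without a single array, with median centring and with the replicate block, with an adjusted p of up to 1.

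AT2G40460 passed at the same early times. At 0.5 h it stood at 8.22, 8.29 and 8.41 on control medium and at 7.45, 7.05 and 7.43 on IAA, with no overlap (-1.0 ± 0.201, adjusted p = 0.00351). At 2 h the control values of 8.07, 8.07 and 8.04 faced IAA values of 5.70, 6.04 and 6.74. The IAA mean of 6.16 lay among the array lower quartiles, and the measured difference was -1.90 (adjusted p = 1.7e-08). It was -0.91 at 8 h (adjusted p = 0.00124) and -0.44 at 12 h (adjusted p = 0.172). The 0.5 h call ended without the IAA array of replicate 2.

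AT2G44300 was lower at 4 tested times. Its control values at 1 h were 9.88, 9.34 and 9.52 and its IAA values 7.91, 8.59 and 8.17, and the groups did not overlap (-1.35 ± 0.181, adjusted p = 4.71e-06). The difference was -1.52 at 2 h (adjusted p = 1.63e-07), -1.06 at 8 h (adjusted p = 3.87e-05) and -0.69 at 12 h (adjusted p = 0.00882). At 4 h, which the choice of members used, it was -2.12. The 12 h call ended without the IAA array of replicate 1 or the control array of replicate 3.

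The adjacent loci AT4G30450 and AT4G30460 were both among the 5 named members with the lowest differences at 4 h. AT4G30450 stood at 11.32, 11.41 and 11.55 on control medium at 4 h and at 9.06, 8.40 and 8.66 on IAA. After 2 h on the medium control values were 11.22, 11.41 and 11.63 and IAA values 8.08, 9.20 and 10.54, so the IAA arrays were spread over more than 2 log2 units without reaching the control values. The 2 h difference was -2.14 ± 0.311, 4.42-fold (adjusted p = 6.25e-06), and that at 8 h -1.12 (adjusted p = 0.0106). At 12 h it was -0.27 (adjusted p = 0.673).

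AT4G30460 followed with -1.99 at 2 h, 3.98-fold (adjusted p = 0.000138), -1.73 at 8 h (adjusted p = 0.000478) and -0.97 at 12 h (adjusted p = 0.071). Its 4 h values were 10.74, 10.43 and 11.07 on control medium and 8.40, 7.65 and 7.82 on IAA. The groups lay apart there, as the choice of members required. In a fit of the 2 h arrays alone the adjusted p was 0.114 for AT4G30450 and 0.179 for AT4G30460. Of 5882 pairs of measured genes next to each other on a chromosome, 3 held a member on both sides and 71 on one side. The other pairs of 2 members were AT1G21670 with AT1G21680 and AT5G37980 with AT5G37990.

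AT3G53980 was the member with the largest difference at 8 h. Its control values there were 12.58, 12.76 and 12.82 and its IAA values 9.50, 9.52 and 9.23, so the groups lay more than 3 log2 units apart. The difference was -3.30 ± 0.392, a 9.88-fold fall (adjusted p = 5.63e-08). At 2 h the IAA values of 10.41, 11.39 and 12.82 overlapped the control values of 12.71, 12.65 and 13.52 (-1.42, adjusted p = 0.0156), and the call ended without the IAA array of replicate 1 or 2 or the control array of replicate 3. The change of its IAA effect from 2 to 8 h did not pass (-1.89, adjusted p = 0.0746). AT3G53980 was still lower at 12 h by -2.02 (adjusted p = 0.000309). At 24 h the IAA values were 12.77, 12.34 and 12.64 against 12.96, 12.84 and 13.03.

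Several other members were lower at 8 h and had not passed, or had passed by less, at 2 h. Of those named here, only GSTU27 passed when both differences were tested against each other. For AT4G33550, AT2G37870, AT5G37990, AT3G13950, AT3G26450, AT3G17110 and AT4G29700 that test gave values between -1.60 and -0.57 (adjusted p of 0.17 or more). A deeper fall at the later time was therefore not shown for these genes. GSTU27 encodes a tau-class glutathione transferase, a family that joins glutathione to reactive or foreign compounds. Its control values at 8 h were 10.75, 10.79 and 10.92 and its IAA values 9.26, 9.28 and 9.27. The IAA arrays were almost equal and lay well below the control arrays (-1.55 ± 0.166, 2.93-fold, adjusted p = 6.07e-09). At 2 h the difference was -0.35 (adjusted p = 0.214), and the change from 2 to 8 h was -1.2 (adjusted p = 0.00208), a call that ended without replicate 1 (adjusted p = 0.294). At 12 h it was -0.58 (adjusted p = 0.0177), which ended without the IAA array of replicate 1 or 2 or the control array of replicate 2.

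AT4G33550 was lower at 2 h by -1.96 (adjusted p = 0.00229), at 8 h by -2.63, 6.19-fold (adjusted p = 2.5e-05), and at 12 h by -1.88 (adjusted p = 0.00251). Its 8 h values were 11.13, 11.07 and 10.29 on control medium and 8.59, 8.30 and 7.71 on IAA, with no overlap. AT2G37870 stood at 9.62, 10.25 and 9.30 on control medium and at 7.51, 7.73 and 7.03 on IAA at 8 h (-2.30 ± 0.495, adjusted p = 0.000928). Its control arrays varied more than those of the other named members at 1 h, where they read 12.00, 10.23 and 11.27. At 12 h its adjusted p was 0.0411, and the call ended without the control array of replicate 1 or the IAA array of replicate 2 or 3.

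At 8 h the falls of AT5G37990, AT3G13950, AT3G26450 and AT3G17110 lay between -1.82 and -1.57 (adjusted p of 0.00114 or less). All but AT5G37990 (adjusted p = 0.0547) also passed at 12 h, with differences between -1.48 and -1.25. AT3G13950 reached an IAA mean of 6.08 at 8 h, below the array lower quartiles. It was lower at 2 h too (-0.87, adjusted p = 0.0348), a call that ended without any one control array or without the IAA array of replicate 1 or 2. AT4G29700 was lower at 8 h by -1.53 (adjusted p = 0.0225), and this ended without the IAA array of replicate 1 or 2 or the control array of replicate 3.

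Other members were lower at 2 h and did not pass at 8 h. AT4G02850 stood at 8.44, 8.59 and 8.66 on control medium and at 6.59, 6.86 and 6.91 on IAA at 2 h, with no overlap (-1.78 ± 0.201, 3.43-fold, adjusted p = 5.94e-08). At 8 h the values were 8.39, 8.33 and 8.65 against 8.31, 8.11 and 8.26 (-0.23, adjusted p = 0.503). At 12 h it was higher on IAA, at 9.17, 8.67 and 9.26 against 8.24, 8.13 and 8.48 (0.75, adjusted p = 0.0102). The 12 h call ended without the IAA array of replicate 1 or 3 or the control array of replicate 2. From 2 to 8 h its IAA effect rose by 1.54 (adjusted p = 0.00107), a call that ended without replicate 1 (adjusted p = 0.111).

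AT3G18280 was lower at 2 h alone among the tested times. Its control values there were 11.49, 11.40 and 11.28 and its IAA values 9.80, 10.52 and 10.01, with no overlap (-1.28 ± 0.191, adjusted p = 1.07e-05). At 8 h the values were 11.58, 11.83 and 11.36 against 11.72, 11.59 and 11.59, and the groups overlapped (0.04, adjusted p = 0.918). The difference was -0.68 at 1 h (adjusted p = 0.054) and 0.42 at 12 h (adjusted p = 0.170). The change from 2 to 8 h was 1.32 (adjusted p = 0.00325), and it did not pass without replicate 1 (adjusted p = 0.191) or replicate 3 (adjusted p = 0.0512).

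AT5G57150 was lower at 2, 8 and 12 h, by less at each later time. At 2 h it stood at 8.91, 8.66 and 9.19 on control medium and at 7.01, 6.99 and 7.69 on IAA, with no overlap (-1.69 ± 0.175, adjusted p = 9.93e-09). The difference was -1.01 at 8 h (adjusted p = 5.26e-05) and -0.59 at 12 h (adjusted p = 0.0212). The 12 h call ended without the control array of replicate 1 or the IAA array of replicate 1 or 2. Neither its change from 2 to 8 h (0.68, adjusted p = 0.22) nor that from 8 to 12 h (0.42, adjusted p = 0.9999) passed.

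AT1G55240 was lower at 1 h by -1.09 (adjusted p = 0.0454), at 2 h by -1.74 (adjusted p = 0.0001) and at 8 h by -0.90 (adjusted p = 0.0365). Its 1 h call ended without any one array of that time but the IAA array of replicate 3, and its 8 h call without any one array of that time but the control array of replicate 1. AT3G45680 was lower at 2 h by -1.92 (adjusted p = 0.0128), with IAA values of 6.45, 6.94 and 8.58 below control values of 9.15, 9.10 and 9.48. That call ended without the IAA array of replicate 1 or 2. AT2G43550, lower by -1.87 at 2 h (adjusted p = 0.0434), lost its call without the IAA array of replicate 1 or 2 or the control array of replicate 2 or 3.

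AT2G41800 was higher on IAA at 12 h and passed as lower at no tested time. Its IAA values at 12 h were 12.50, 12.76 and 12.11 against 10.27, 9.79 and 10.95 on control medium, and every IAA value lay above every control value. The 12 h rise was 2.12 ± 0.315, 4.35-fold (adjusted p = 4.88e-06). The difference was 0.43 at 0.5 h, 0.52 at 1 h, -0.40 at 2 h and 0.57 at 8 h, and none of these passed (adjusted p of 0.246 or more). Its change from 8 to 12 h did not pass (1.55, adjusted p = 0.567). The 4 h values that chose it were 9.65, 9.11 and 9.69 on IAA against 10.49, 10.15 and 10.88. Its neighbour AT2G41810, which is no member and is given without a test, stood 1.64 higher at 8 h and 1.96 higher at 12 h. The other members higher at 12 h were AT4G02850 and the unlisted probe sets 264497_at, 262039_at and 257197_at. Their count of 5 was 3 without the IAA array of replicate 1 and 2 without the control array of replicate 2 or the IAA array of replicate 3.

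**Figure D5:**
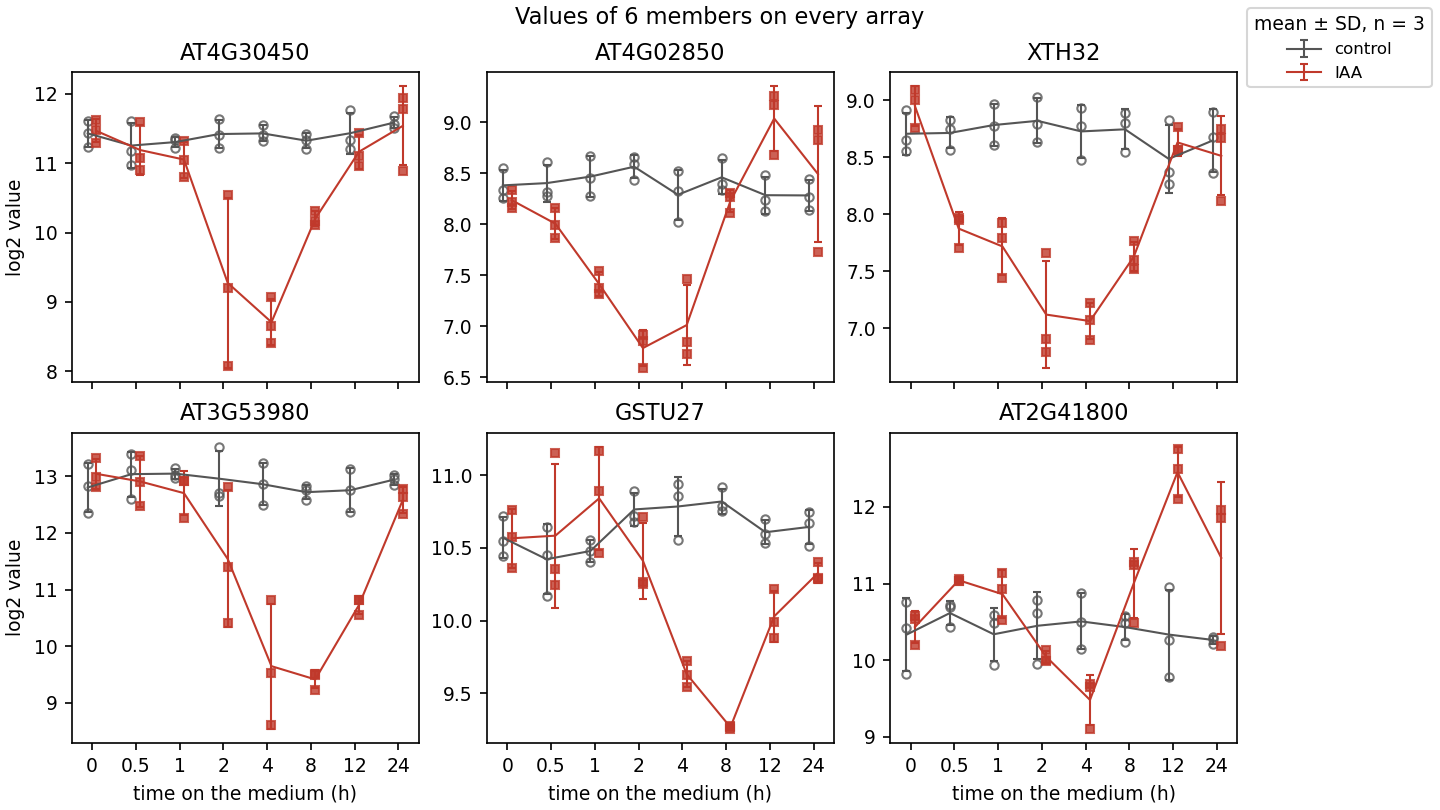
Log2 values of 6 members on every array (symbols) with the mean and SD of 3 arrays (lines and bars) on control medium (grey) and IAA (red), against time in hours. AT4G30450, XTH32 and AT3G53980 passed as lower at both 2 and 8 h. AT4G02850 passed as lower at 2 h and not at 8 h, and GSTU27 at 8 h and not at 2 h. AT2G41800 is 2.12 above control medium at 12 h. The low IAA values at 4 h in all 6 panels were required by the choice of members.

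The beta-glucosidases split sugars from their conjugates. BGLU16 stood at 9.73, 9.67 and 10.30 on control medium and at 8.87, 8.76 and 9.05 on IAA at 8 h, with no overlap (-1.01 ± 0.186, 2.01-fold, adjusted p = 0.00014). It was still lower at 12 h (-0.92, adjusted p = 0.000586). At 2 h it was lower by -0.70 (adjusted p = 0.0118), a call that ended without the IAA array of replicate 1 or 2 or the control array of replicate 3. BGLU44 read 7.15, 6.79 and 8.49 on control medium at 8 h and 6.27, 5.96 and 6.77 on IAA, with replicate 3 high on both media (-1.15, adjusted p = 0.0527). Its IAA mean of 6.14 at 4 h lay among the array lower quartiles. BGLU43, its neighbour on the chromosome and no member, differed by -0.02 at 4 h.

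SWEET11 belongs to a family of sugar transporters, and AT2G26690 (NPF6.2) to the NRT1/PTR family of nitrate and peptide transporters. Neither passed at any tested time. At 2 h SWEET11 read 7.18, 6.55 and 8.21 on control medium and 6.11, 6.32 and 7.70 on IAA, and the groups overlapped. AT2G26690 read 7.86, 7.37 and 8.82 against 6.22, 6.36 and 7.84 (-1.21 ± 0.544, adjusted p = 0.185). Replicate 3 gave the highest value on both media for both genes at 2 h. SWEET11 had an IAA mean of 6.27 at 4 h, among the array lower quartiles.

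RALFL27 encodes a RALF-like peptide, a family of secreted signals perceived at the cell surface. At 8 h it stood at 10.45, 10.72 and 10.22 on control medium and at 9.09, 9.10 and 9.23 on IAA, with no overlap (-1.32 ± 0.308, 2.5-fold, adjusted p = 0.00216). At 2 h the adjusted p was 0.104.

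The remaining 5 annotated members are named because the tables give them a symbol, after their values were seen. MSRB5, a methionine sulfoxide reductase that repairs oxidised methionine, stood at 12.66, 12.68 and 12.81 on control medium at 8 h and at 12.15, 12.01 and 12.33 on IAA (-0.56, adjusted p = 0.00514). It was also lower at 2 h (-0.52, adjusted p = 0.0137), a call that ended without the IAA array of replicate 1 or the control array of replicate 2. The fold was under 1.5 at both times. The adjacent MSRB6, no member, differed by -1.21 at 2 h, -0.93 at 4 h, -1.26 at 8 h and -0.80 at 24 h.

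ATG8E encodes a ubiquitin-like protein of the autophagosome membrane. It was lower at 2 h by -1.08 (adjusted p = 0.047) and at 8 h by -1.03 (adjusted p = 0.0427). Its 2 h values were 10.65, 10.51 and 9.01 on control medium and 8.96, 8.95 and 9.04 on IAA, so the control array of replicate 3 lay among the IAA arrays. The 2 h call ended without any one IAA array or the control array of replicate 1 or 2, and the 8 h call without replicate 1 or 2 of either medium. Without the 12 arrays of 4 and 24 h neither call passed.

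JAL33, a jacalin-related lectin, was among the highest members at 13.10 over 48 arrays. It read 13.39, 13.41 and 13.77 on control medium and 11.92, 12.37 and 12.57 on IAA at 4 h and passed at no tested time (adjusted p = 0.0994 at 12 h). The adjacent JAL34 differed by -0.15 at 4 h. STR18, a sulfurtransferase, stood at 10.73, 10.28 and 11.23 against 9.81, 9.99 and 10.38 at 8 h, where the groups overlapped (-0.69, adjusted p = 0.0906). NAMT1, which methylates nicotinate, read 7.06, 7.02 and 8.18 against 6.13, 6.15 and 6.41 at 8 h (-1.19, adjusted p = 0.0504). Its IAA values of 6.13 and 6.15 at 8 h lay among the array lower quartiles. The IAA mean of 6.02 at 4 h lay below those quartiles.

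The 90 members with no entry in the gene table held the member with the lowest difference. Probe set 254606_at stood at 11.23, 11.18 and 11.64 on control medium at 4 h and at 7.92, 7.43 and 7.79 on IAA (-3.64, a description). At the tested times it was lower at 2 h by -2.62 ± 0.259, 6.14-fold (adjusted p = 3.6e-09), at 8 h by -2.66 (adjusted p = 6.44e-10) and at 12 h by -1.33 (adjusted p = 0.000348). Probe sets 248729_at and 259388_at were lower at 2 h by -2.39 (adjusted p = 0.000972) and -2.08 (adjusted p = 0.0212). The 2 h call of 259388_at ended without the IAA array of replicate 1 or 2 or the control array of replicate 1 or 3. Of the unlisted members, 48 of 90 were lower at 2 h, 46 at 8 h and 24 at 12 h. Of the 79 with 1 gene, 43 were lower at 2 h, 50 at 8 h and 24 at 12 h.

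Gene lists of pathways active in roots held 6 members among 204 genes that could be named (2.94%, beside 0.756% of all probe sets). The lists were chosen with earlier results of these data known, and all probe sets include those with no gene entry. These shares are therefore unlike, and no enrichment was tested. Counts of passing genes in each list stand beside 3.76% lower and 5.44% higher at 2 h and 6.43% and 8.45% at 8 h over all probe sets, and several lie near those shares. Of 29 measured expansins and xyloglucan enzymes, which loosen or remodel walls, 7 were lower and 1 higher at 2 h and 7 lower and 2 higher at 8 h, and XTH32 was the member. Their median differences were -0.16 and -0.05, beside -0.013 and -0.008 over all probe sets. Of 12 genes of nitrogen uptake and assimilation 1 was lower and 1 higher at either time (medians -0.17 and -0.21), with AT2G26690 as member. Of 23 genes of root triterpene clusters, glucosinolates and beta-glucosidases 1 was lower at 2 h and 4 lower and 1 higher at 8 h (medians -0.17 and -0.19), with BGLU16 and BGLU44 as members. Of 18 secreted peptides 1 was lower and 2 higher at 2 h and 3 lower and 1 higher at 8 h (medians -0.11 and -0.03), with RALFL27 as member. Of 18 sugar transporters 3 were lower at 2 h and 3 lower and 2 higher at 8 h (medians -0.26 and -0.12), with SWEET11 as member.

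The other lists held no member, and their medians lay between -0.31 and 0.36 at 2 h and between -0.44 and 0.45 at 8 h. At 2 and 8 h, 1 and 3 of 22 cytochrome P450s were lower and none higher. Among 38 transcription factors 1 was lower and 5 higher at 2 h, and 5 were lower and 6 higher at 8 h. Of 7 class III peroxidases 1 was lower and 1 higher at 8 h alone, and of 7 cell division genes 3 were higher at 8 h alone. Of 8 iron and metal genes 1 was higher at either time, and the single measured gene of extensins and related wall proteins was higher at 8 h. None of 10 phenylpropanoid genes, 6 cytokinin genes, 4 phosphate and sulfate genes, 3 root hair genes or 1 endodermal gene passed at either time. Aquaporins, auxin transport, gibberellin and ethylene metabolism, receptor-like kinases and lipid transfer proteins had 0 genes that could be named. The gene table has no entry for 8730 of 22746 probe sets, so such genes may still be on the array.

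A second set met the same conditions at 4 h but not the one at 24 h. Those 280 probe sets had a median difference of -1.46 at 4 h and -0.99 at 24 h, where the choice itself set them apart. At times the choice did not use, 159 of 280 (56.8%) were lower at 2 h, 238 (85.0%) at 8 h and 211 (75.4%) at 12 h, against 93, 98 and 48 of the 172 members. The median differences of the second set were -1.01, -1.56 and -1.35 at 2, 8 and 12 h. Both sets share the control and IAA arrays, so these are values side by side.

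The thresholds cut through a continuous range. Just inside the 4 h limit lay AT1G24440 (-1.0), AT2G29340 (-1.0) and 254041_at (-1.02), and just outside, at -1.0 after rounding, 248793_at, AT4G33960 and AT4G03610. Just inside the 24 h limit lay AT4G31330 (-0.50), 252340_at and 266184_s_at (-0.49), and just outside 248728_at, AT3G24750 and GSTU28 (-0.51). Just above the floor on the mean lay AT5G45650 (6.53), AT5G51520 (6.76) and AT5G41380 (6.80), and just below it 266901_at (6.40), 254888_at (6.29) and 257280_at (5.89). With the 4 h limit at -0.8 the rule took 295 probe sets, and with -1.2 it took 88. At 24 h, 55 members stood above control medium and 11 by more than 0.5.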

How the data were processed

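The authors deposited log2 signals, 1 per probe set and array, for 48 single-channel Affymetrix arrays labelled by the 3'-IVT protocol, per the labels' protocols. The unit was read from the values. Their summary and normalization are not given in the sources used here. No values were changed before the main fit. Affymetrix's own 64 control probe sets were dropped. Array means lay between 7.69 and 7.70, no pair of arrays was identical, and of all values 54 were exactly 0, none in a member. Precision is limited by the 3 arrays of a group, since an array has no read depth.

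Genes were assigned from the platform's gene table (13513 with 1 gene, 503 with several, 8730 not listed) and symbols from the RefSeq table of the assembly TAIR10.1, which held 13436 of them. A mean for each of 16 groups was fitted to all 48 arrays with limma 3.58.1 in R 4.3.3 (lmFit and eBayes, 32 residual degrees of freedom), with two-sided p-values adjusted by Benjamini-Hochberg over 22746 probe sets and a threshold of 0.05. Errors of differences are standard errors of that fit. The spread is pooled with the arrays that chose the members, so a fit without the 12 arrays of 4 and 24 h was an alternative. The fit was tried on simulated data with 200 changed probe sets and independent noise on each array. Deviations shared between arrays were not simulated.

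The members, the lists of genes and the naming rule were chosen with earlier results of these data known. Named genes were 1-gene members with the 10 largest passing falls at 2 and at 8 h, up to 6 passing rises, the 5 lowest differences at 4 h, up to 4 passing each change of effect, up to 4 of each list, the 3 nearest either side of each threshold, and 3 unlisted probe sets by ID. The neighbours AT2G41810, BGLU43, MSRB6 and JAL34, which are no members, were named outside that rule, among 71 pairs with a member on one side. No p-value is given for them. Replicate numbers were not treated as pairs. Alternatives were quantile normalization, median centring, a floor on the mean, the replicate block, a variance trend, other sets of arrays, a fold of at least 1.5, and arrays left out. No sequence is printed, since none was used here.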

Additional observations from a re-analysis of the deposited data

Results flagged for a closer look

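A change of the IAA effect between times passed limma's test for 8 members. From 2 to 8 h the log2 difference between IAA and control medium rose by 1.55 for probe set 262039_at (SE 0.350, adjusted p = 0.00936), 1.54 for AT4G02850 (SE 0.285, adjusted p = 0.00107), 1.32 for AT3G18280 (SE 0.270, adjusted p = 0.00325), 1.30 for 264497_at (SE 0.231, adjusted p = 0.000721) and 1.28 for 252534_at (SE 0.312, adjusted p = 0.0198). It went lower by -1.2 for GSTU27 (SE 0.235, adjusted p = 0.00208) and by -0.81 for 260126_at (SE 0.216, adjusted p = 0.0375). From 8 to 12 h it rose by 1.26 for XTH32 (SE 0.264, adjusted p = 0.0440). The XTH32 call ended in most fits without a single array, with median centring and with the replicate block.

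Without replicate 1 the changes of AT4G02850 (adjusted p = 0.111), AT3G18280 and GSTU27 (adjusted p = 0.294) no longer passed. Without the IAA array of replicate 3 at 2 h, 15 members passed from 2 to 8 h in place of 7.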

How the results depend on the processing

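No named call changed direction under any alternative. Of 131 calls of named members, 56 passed under every alternative. Of 24 same-numbered pairs of control and IAA arrays, 20 shared their deviations (correlation over 0.1, range -0.18 to 0.483). The exceptions lay at 4 and 12 h, so the numbers were not taken as pairs. With the replicate number as a block, 9, 26, 106, 112 and 63 members were lower at 0.5, 1, 2, 8 and 12 h, 11 changed from 2 to 8 h and 0 from 8 to 12 h. On IAA 123, 119 and 66 were then lower at 2, 8 and 12 h than at 0 h. In fits of only the arrays of a contrast, which leave fewer degrees of freedom, 2, 3 and 19 members were lower at 0.5, 1 and 2 h, 42 on IAA at 2 h against 0 h, and 0 changed from 8 to 12 h. Median centring gave 0 and the fit without the 12 arrays of 4 and 24 h gave 2 for that change. With the 4 arrays that stood farthest from their groups left out, an alternative chosen after seeing the data, 11, 28 and 136 were lower at 0.5, 1 and 2 h and 20 changed from 2 to 8 h. The cause of these shifts was not tested.

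Leaving out single arrays or replicate numbers gave 0 to 13 lower members at 0.5 h, 2 to 27 at 1 h, 19 to 134 at 2 h, 56 to 99 at 8 h and 10 to 50 at 12 h, and 1 to 5 higher at 12 h. On IAA against 0 h the ranges were 21 to 151, 36 to 121 and 10 to 75 at 2, 8 and 12 h, and for the changes 0 to 15 and 0 to 1. The rule itself took 118 to 257 probe sets with a replicate number left out, 295 and 88 with the 4 h limit at -0.8 and -1.2, 113 with the 24 h limit at -0.3, and 171 after quantile normalization, 161 of them shared.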
